A study of Mus musculus with 2 samples.

Results

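The fibroblasts of the postnatal mouse esophagus are described here as 182 of the 7808 single cells of the series, 151 from the pup and 31 from the adult. They are the cells that carried a tag of the esophagus at one of these stages and that the authors had labelled Stromal. The 739 Stromal cells of the esophagus at embryonic day 19 (E19) served as the reference before birth. In the whole series 3442 cells had the Stromal label. The series profiled single cells of the esophagus, the gastroesophageal squamocolumnar junction (GE-SCJ) and the stomach from wild-type C57BL/6 mice at embryonic day 15, E19, day 2 after birth (pup) and 8 weeks of age (adult), except that the adult stomach was not analysed here because none of its cells carried an assigned tag. Tissues were minced and dissociated in collagenase, and cells of one region and stage were pooled over mice and marked with one lipid-linked tag before all were run together. The methods speak of 3 mice combined per sample, but by the labels the adult pool had 3 mice and the pup and E19 pools 2 each. The mice of one tag could not be separated, so each stage is a single pooled sample, no significance test was made, and every interval below covers counting error only.

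The tags decided which stage a cell was counted under, and their sequences are therefore given. They are 15-base oligonucleotides that differed from one another at 10 to 12 positions.

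E19 esophagus: aacgttaatcactca
pup esophagus: aagctcgttggaaga
adult esophagus: gcaggaggtatcaat

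Fibroblasts of the gut wall make collagens, proteoglycans and elastic fibres, and they send growth and inhibitory signals to the epithelium above them. Around birth, fibroblasts of many organs leave a dividing state in which imprinted growth genes such as *Igf2* and *Dlk1* are active, and later take up a state of matrix upkeep with complement and protease inhibitor genes. Immediate early genes such as *Fos* and *Egr1* are switched on within minutes of growth factors, stress or tissue handling, and glucocorticoid response genes such as *Fkbp5* and *Tsc22d3* are activated by the receptor for corticosterone.

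The pup cells held 627893 unique molecular identifiers (UMIs, each standing for a counted RNA molecule), with a median of 3859 per cell and a range from 987 to 20659. Adult cells held 161569 UMIs, with a median of 4906 and a range from 1557 to 13863. At E19 the sum was 6979256, with a median of 9172 per cell. Levels are given as CPM, the counts of a gene per 1000000 summed UMIs of a stage, with an exact 95% Poisson interval. A gene with 0 UMIs could have had a level of up to 4.78 CPM in the pup and 18.6 CPM in the adult. The Stromal label took 44.4% of the 340 pup cells, 9.25% of the 335 adult cells and 74.8% of the 988 E19 cells of the esophagus. These shares may depend on how each tissue came apart, which was not tested.

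At every stage all 4 fibroblast markers were higher in Stromal cells than in smooth muscle, squamous, immune, neural and endothelial cells. *Dcn*, encoding the proteoglycan decorin, was at 6728 CPM at E19, 3603 CPM in pup cells and 11339 CPM in adult cells, against 385 CPM in adult smooth muscle cells and 70.7 CPM in adult squamous cells of the same tag. *Pdgfra*, the receptor that marks fibroblasts, was at 292, 876 and 470 CPM in the same order, against 29.2 CPM in adult smooth muscle. Less distinct were *Col1a1*, at 3168 CPM in pup neural cells against 6929.5 CPM in pup stroma, and *Dcn*, at 894 CPM in E19 immune cells. All 4 markers (*Dcn*, *Lum*, *Col1a1* and *Pdgfra*) were detected in 602 of 739 E19 cells, 97 of 151 pup cells and 26 of 31 adult cells, and 1 pup cell had none of them.

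Markers of other cells were mostly low in the stroma, with a few exceptions that bear on the results. The 8 neural, 8 endothelial and 9 immune markers summed to at most 31.9 CPM at any of the 3 stages, and *Ptprc*, *Pecam1*, *Cdh5* and *Sox10* had no UMI in the adult cells. Columnar markers summed to 1861 CPM at E19, 3955 CPM in pup cells and 2866 CPM in adult cells, led by the gastric gene *Pgc* with 859.5, 1752 and 1368 CPM, and 10, 10 and 9 of the 10 genes were detected. Smooth muscle markers summed to 3238, 807 and 538 CPM, led by *Acta2* at E19 and in pup cells and by *Tagln* in adult cells. Red blood cell genes summed to 1813, 1526 and 396 CPM, and 449 of the 611 *Hbb-bs* UMIs of the pup lay in 1 cell. The part of these transcripts in the differences below was not tested.

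Some cells stood apart from their stage. Of the 15 nearest neighbours of a cell in expression space, most belonged to the other side of birth for 17 pup cells, 3 adult cells and 1 E19 cell. Leaving these out kept 134 pup and 28 adult cells, and the main counts of adult against pup were also made without them. Sex also differed. The 4 Y-linked genes gave 614 UMIs in 288 E19 cells, 2 UMIs in pup cells and 0 in adult cells, so that a difference from E19 cannot be told apart from a difference in the mix of sexes, while pup and adult stroma were alike in having few or no Y-linked transcripts.

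Adult fibroblasts held fewer stress-response and imprinted transcripts than pup fibroblasts, and more of the proteoglycan, complement and adventitial genes. Over 2784 genes with at least 50 UMIs in both stages together, 208 (7.47%) were at least 2-fold higher in the adult and 292 (10.5%) at least 2-fold lower, and the median log2 ratio of adult over pup was -0.01. The immediate early and heat shock list had 18 of 23 measured genes lower and 0 higher, with a median log2 ratio of -2.37. The glucocorticoid response list had 10 of 11 lower and the imprinted growth list 11 of 15 lower, with medians of -1.81 and -2.01. In the other direction, 6 of 7 small leucine-rich proteoglycans, 6 of 9 adventitial markers and 4 of 7 complement genes were higher, with medians of 1.65, 1.60 and 1.24. Without the cells close to the other side of birth, 189 genes were higher and 281 lower. The counts of the glucocorticoid, proteoglycan, adventitial and complement lists were then the same (10 of 11, 6 of 7, 6 of 9 and 4 of 7), and those of the other 2 were 17 of 22 and 10 of 14. The shares of these 6 lists exceed those over all genes, but the lists were written with earlier results of these data known, and members of a list are not replicates.

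**Figure D1:**
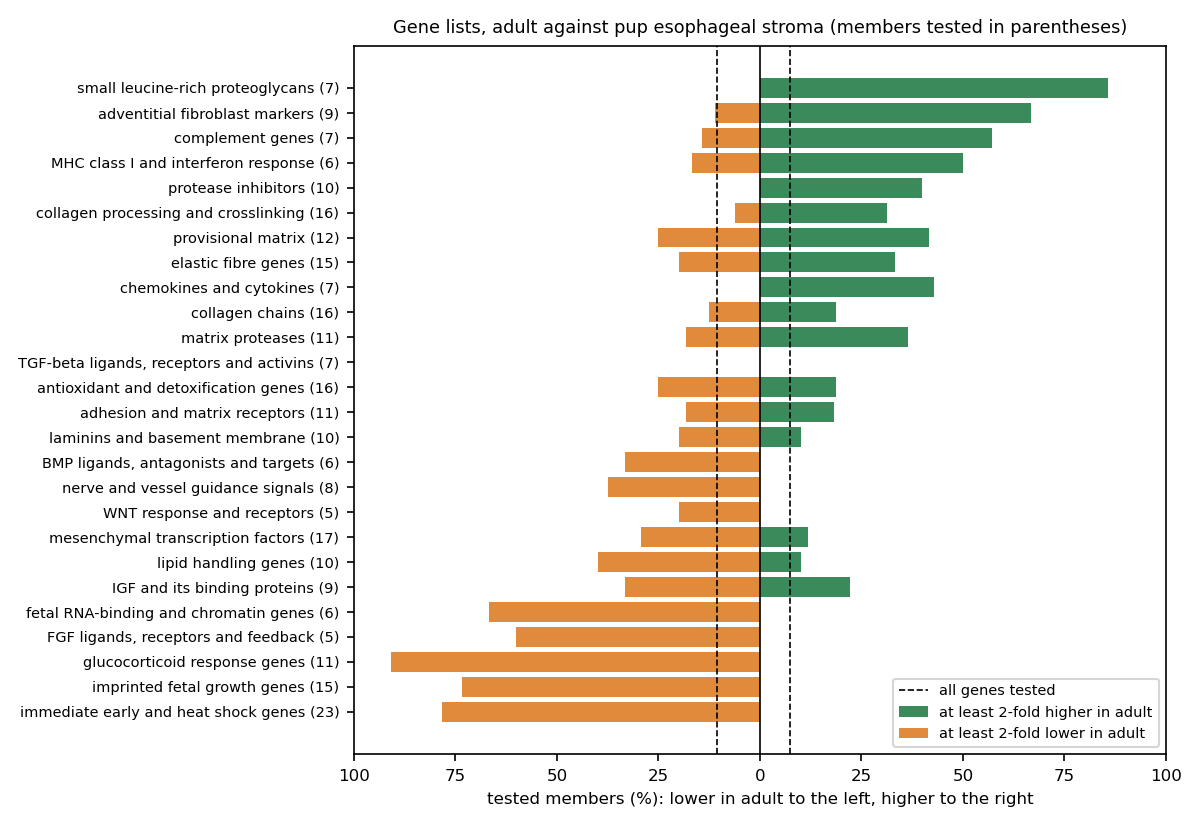
Percent of the measured genes of each list with at least 5 of them (number in parentheses) that were at least 2-fold lower (bars to the left) or higher (bars to the right) in adult than in pup esophageal fibroblasts, with dashed lines at the shares over all genes, 10.5% and 7.47%. Bars of the immediate early, glucocorticoid and imprinted lists reach left only (18 of 23, 10 of 11 and 11 of 15 genes), and the bar of the small leucine-rich proteoglycans reaches right only (6 of 7).

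The gene with the largest rise was *S100a4* (chr3:90603771-90606045, GRCm38), which encodes a calcium-binding protein used as a fibroblast marker. It had 86 UMIs in 11 of 31 adult cells, a level of 532 CPM (426 to 657), and 0 UMIs in 151 pup cells, so it was higher by at least 111-fold in adult cells. However, 50 of the 86 UMIs came from 1 cell, and without that cell the adult level was 244 CPM. At E19 it was at 16.9 CPM. *Dkk2* (chr3:132085292-132180304), a secreted inhibitor of WNT signalling, was at 5.01 CPM at E19, 9.56 CPM (3.51 to 20.8) in pup cells and 514 CPM (409 to 637) in adult cells (log2 ratio 5.54, 4.57 to 7.24), and its UMIs were spread over 15 adult cells with at most 18 in a single cell. Both genes were thus present in part of the adult cells and at or near the counting floor in the pup.

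*C3* (chr17:57203970-57228136), the central complement component, was at 33.4 CPM (20.7 to 51.1) in pup cells and 953 CPM (809 to 1116) in adult cells, where 19 of 31 cells had a UMI. *Ifi27l2a*, an interferon-inducible gene, was at 19.1 CPM in pup cells and 656 CPM in adult cells, and at 172 CPM at E19, so that the pup was lowest of the 3 stages. *Pcolce2*, an enhancer of procollagen cleavage, went from 20.7 to 446 CPM (log2 ratio 4.34, 3.56 to 5.40), the anchoring proteoglycan gene *Prelp* from 19.1 to 396 CPM (4.28, 3.47 to 5.40), the serine protease gene *Htra1* from 17.5 to 316 CPM (4.07, 3.21 to 5.26) and the basement membrane collagen gene *Col15a1* from 54.1 to 749 CPM (3.76, 3.23 to 4.38). Of the 34 *Col15a1* UMIs of the pup, 21 were in 1 cell.

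*Cilp*, a matrix protein gene first described in cartilage, was at 110 CPM (85.5 to 139) in pup cells and 1758 CPM (1559 to 1975) in adult cells, and *Thbs4*, a thrombospondin of tendon and muscle matrix, at 79.6 and 854 CPM. In the adult, 81 of the 284 *Cilp* UMIs and 43 of the 138 *Thbs4* UMIs came from 1 cell each, so these sums lean on few cells. *Serpinf1*, encoding the angiogenesis inhibitor PEDF, went from 41.4 to 607 CPM, and its transcripts were found in 26 of 31 adult cells. *Tspo*, a mitochondrial cholesterol-binding protein, went from 36.6 to 384 CPM.

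Among the 12 genes that fell most, *Cebpd* (chr16:15887286-15891031), a transcription factor of adipose and acute-phase responses, was at 2047 CPM (1936 to 2162) in the pup with UMIs in 144 of 151 cells, and at 61.9 CPM (29.7 to 114) in the adult with UMIs in 6 of 31 cells. *Zbtb16* (chr9:48654297-48836222), a zinc finger repressor induced by glucocorticoids, had 109 UMIs in the pup, 174 CPM, and 0 in the adult, so it was at least 9.35-fold lower. The stress-induced factor *Atf3* went from 634 to 24.8 CPM, the antiproliferative gene *Btg2* from 981 to 43.3 CPM and the cytokine feedback inhibitor *Socs3* from 350.4 to 18.6 CPM. *Fbn2*, the fibrillin of fetal microfibrils, was at 1185 CPM at E19, 999 CPM (922 to 1080) in pup cells and 49.5 CPM (21.4 to 97.6) in adult cells. *Agtr2*, the angiotensin receptor of fetal mesenchyme, was at 775, 546 and 24.8 CPM, and its 4 adult UMIs lay in 1 cell.

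The remaining 5 were detected mainly in the pup. *Smim41*, *Mpp6*, *Col24a1* and *Tmem229a* had 72, 66, 62 and 58 UMIs in the pup and 0 in the adult, which made them at least 6.18-, 5.66-, 5.32- and 4.97-fold lower. *Chodl*, a lectin-like membrane protein, had 118 UMIs in 52 pup cells and 1 UMI in the adult, with an interval of the log2 ratio from -10.24 to -2.42.

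**Figure D2:**
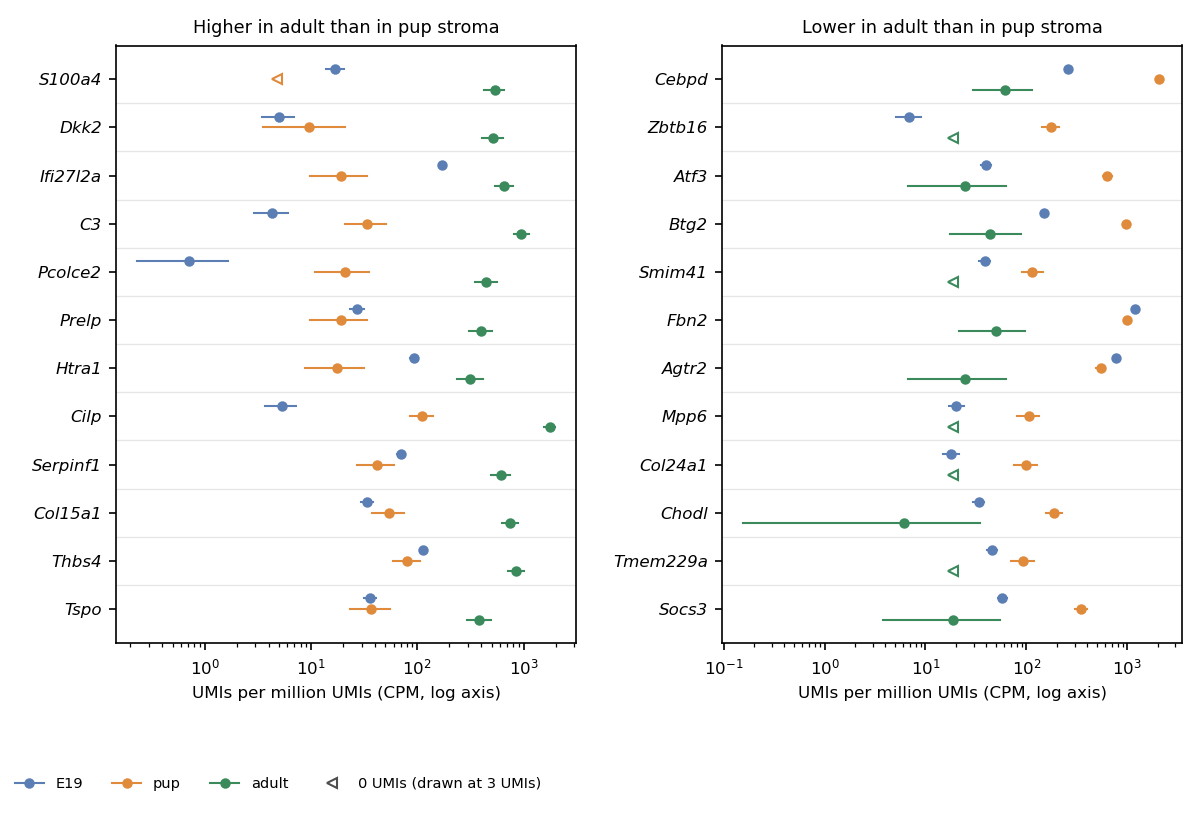
Levels of the 24 named genes in esophageal fibroblasts of the E19, pup and adult samples, as CPM of summed UMIs on a log axis with exact 95% Poisson intervals; an open triangle stands for 0 UMIs and is drawn at the level of 3 UMIs. The left panel holds genes higher in the adult, such as *C3* (953 CPM against 33.4 in the pup), and the right panel those lower in the adult, such as *Cebpd* (61.9 against 2047).

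The immediate early and heat shock genes had a peak in the pup. *Fos* (chr12:85473890-85477273), a subunit of the AP-1 transcription factor, was at 706 CPM (687 to 726) at E19, 3841 CPM (3690 to 3998) in pup cells and 452 CPM (354 to 568) in adult cells. Its partner *Jun* was at 413, 2467 and 470.4 CPM, and *Egr1*, a zinc finger factor of the growth response, at 1186, 3338 and 359 CPM. The pup was highest for all 3. *Zfp36*, which destabilises inflammatory transcripts, was at 159, 835 and 68.1 CPM, and *Ier2*, an immediate early nuclear protein, at 273, 930.1 and 92.8 CPM. The 5 measured list members that stayed within 2-fold between pup and adult were *Jund*, *Hspa1b*, *Hspe1*, *Hspa8* and *Hspd1*. The inducible chaperone genes *Hspa1a* and *Hspa1b* are near-identical copies whose reads may be split, and each is therefore uncertain. They were at 66.5 and 66.2 CPM at E19, 1343 and 1187 CPM in pup cells and 446 and 712 CPM in adult cells.

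The same counts were also read cell by cell, and cells of one pooled sample are not replicates. The list took a median of 0.473% of a cell's UMIs at E19, 1.92% in pup cells and 0.453% in adult cells. Pup cells ranged from 0.191% to 6.86% and adult cells from 0.238% to 1.19%. The median pup cell was reached by 0 of 31 adult cells. With each cell thinned to 3000 UMIs, which left 717, 108 and 26 cells, the medians were 0.467%, 2.12% and 0.483%. Without the cells close to the other side of birth, *Fos* in the pup was at 4189 CPM, and 17 of 22 list members were lower in the adult.

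The summed level of the glucocorticoid response genes also peaked in the pup, with E19 lowest, although the order of E19 and adult varied between members. *Tsc22d3*, encoding the anti-inflammatory protein GILZ, was at 42.7 CPM at E19, 433 CPM (383 to 488) in pup cells and 118 CPM (70.8 to 184) in adult cells. *Klf9*, a hormone-induced Krüppel-like factor, was at 142, 854 and 179 CPM, and *Errfi1*, a feedback inhibitor of the EGF receptor, at 37.4, 307 and 30.9 CPM. The cochaperone gene *Fkbp5* was at 27.9, 98.7 and 30.9 CPM, and its 5 adult UMIs give an interval from 10.0 to 72.2 CPM. *Nr3c1*, the receptor itself, had log2 ratios of 0.98 for adult over pup and -0.35 for pup over E19, both within 2-fold. In single cells the list took a median of 0.092% at E19, 0.451% in pup cells and 0.169% in adult cells, and 0 of 31 adult cells lay above the median pup cell. *Dusp1*, a phosphatase that ends MAP kinase signalling, belongs to both lists.

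**Figure D3:**
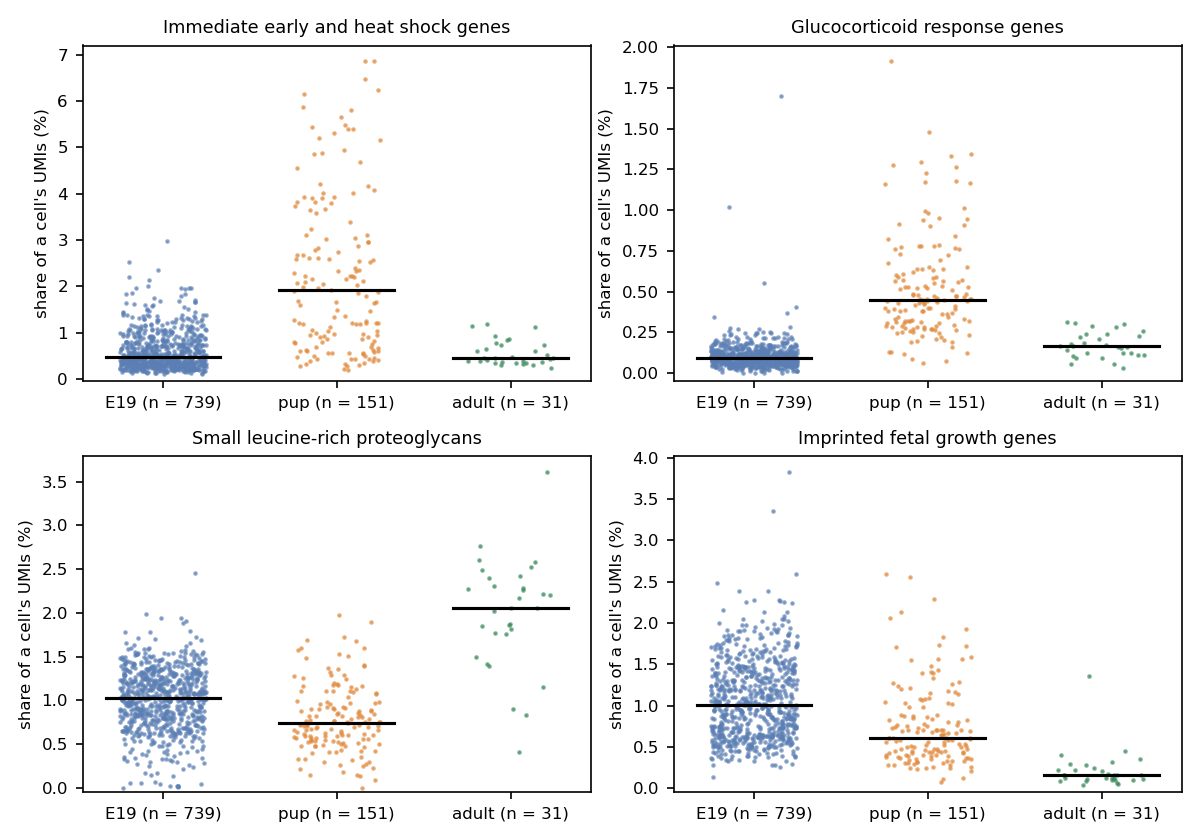
Percent of each cell's UMIs (y axis) taken by 4 gene lists (panels) in esophageal fibroblasts at E19 (739 cells), in the pup (151) and in the adult (31), one point per cell with the median as a bar. For the immediate early and glucocorticoid lists the pup median (1.92% and 0.451%) lies above every adult cell (highest 1.19% and 0.313%), for the proteoglycans the adult median is highest (2.06%), and for the imprinted genes it is lowest (0.160%).

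The course differed between cell classes that shared the tags. The immediate early and heat shock list summed to 6237 CPM at E19, 23669.6 CPM in pup cells and 5954 CPM in adult cells in esophageal fibroblasts. In smooth muscle of the esophagus it was 4928, 11628 and 23513 CPM, in squamous cells 8660, 14946 and 10887 CPM, and in neural cells 19093, 45902 and 17891 CPM. Fibroblasts of the GE-SCJ, cells that were not chosen by the rule, had 11974, 21199 and 10554 CPM. The adult was thus highest in smooth muscle of the esophagus and the pup highest in the other 4 groups. The glucocorticoid list summed to 1025, 5248 and 1671 CPM in esophageal fibroblasts, 995, 5004 and 1416 CPM in GE-SCJ fibroblasts, and 815, 4161 and 4213 CPM in esophageal smooth muscle. Differences between classes were not tested.

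**Figure D4:**
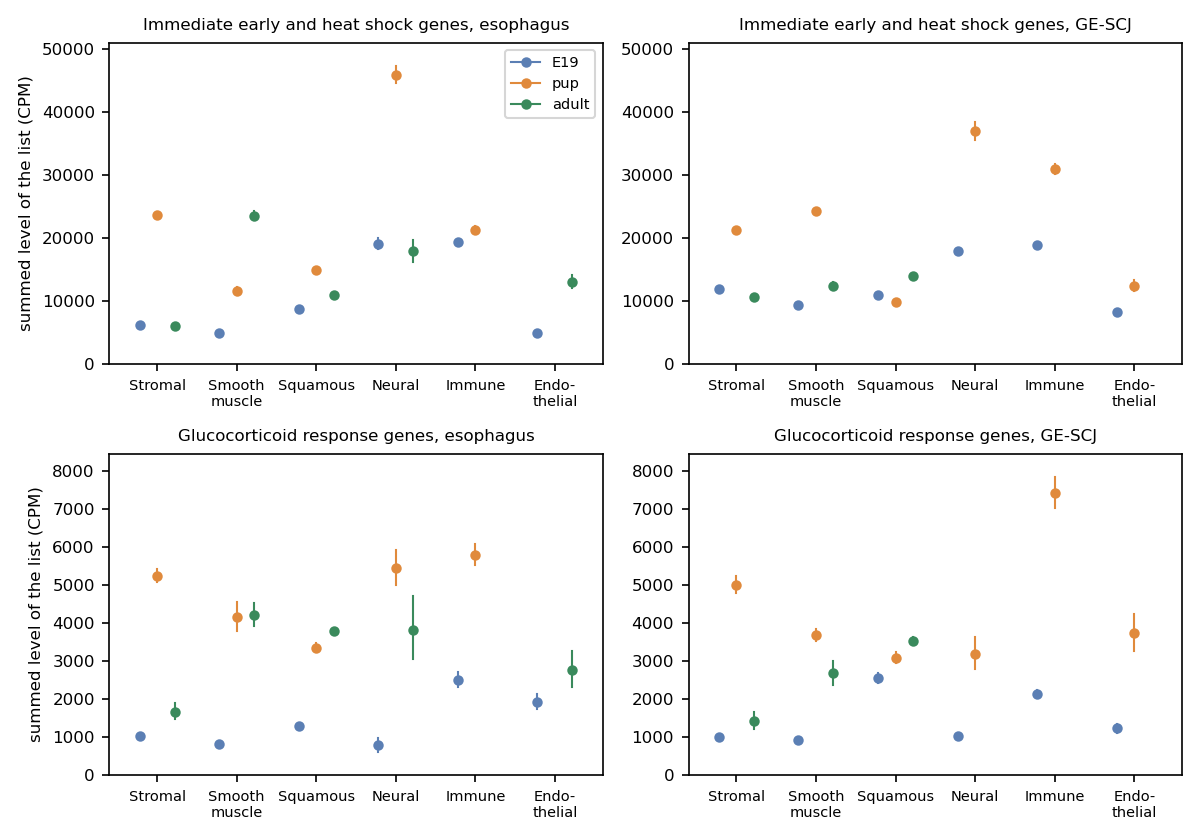
Summed CPM of the immediate early and heat shock list (top) and of the glucocorticoid response list (bottom) at E19, pup and adult in cell classes of the esophagus (left) and the GE-SCJ (right), with exact 95% Poisson intervals, for classes of at least 10 cells. Fibroblasts (Stromal) of both regions peaked in the pup for the upper list (23669.6 and 21199 CPM), whereas smooth muscle of the esophagus was highest in the adult (23513 CPM).

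Promoter sequence of 3 genes of these lists is given, since the windows hold recognisable elements. Most measured members of the lists were at least 2-fold lower in the adult than in the pup (18 of 23 and 10 of 11). Windows of 300 bases, from 250 before to 50 after the annotated start, were taken from RefSeq (GRCm38.p6). Capitals mark the motif match, GAANNTTC (an inverted pair of heat shock units) in *Hspa1a* and TGACGTCA (the cAMP response element) in *Dusp1* and *Btg2*, and both motifs read the same on both strands. *Hspa1a* lies at chr17:34972107-34972406, *Dusp1* at chr17:26508423-26508722 and *Btg2* at chr1:134079106-134079405, all on the minus strand, with the match beginning 104, 143 and 166 bases before the start.

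Hspa1a: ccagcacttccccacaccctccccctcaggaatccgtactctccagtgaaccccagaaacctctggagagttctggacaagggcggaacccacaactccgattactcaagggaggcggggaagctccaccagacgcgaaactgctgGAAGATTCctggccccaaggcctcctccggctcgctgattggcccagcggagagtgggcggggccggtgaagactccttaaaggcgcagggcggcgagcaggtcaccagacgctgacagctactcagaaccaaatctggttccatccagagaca
Dusp1: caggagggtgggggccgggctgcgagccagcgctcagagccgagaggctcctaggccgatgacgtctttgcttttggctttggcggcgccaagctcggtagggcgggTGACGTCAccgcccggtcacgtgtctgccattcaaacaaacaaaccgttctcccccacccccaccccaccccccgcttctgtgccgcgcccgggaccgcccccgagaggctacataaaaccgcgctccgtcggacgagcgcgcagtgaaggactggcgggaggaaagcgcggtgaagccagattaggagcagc
Btg2: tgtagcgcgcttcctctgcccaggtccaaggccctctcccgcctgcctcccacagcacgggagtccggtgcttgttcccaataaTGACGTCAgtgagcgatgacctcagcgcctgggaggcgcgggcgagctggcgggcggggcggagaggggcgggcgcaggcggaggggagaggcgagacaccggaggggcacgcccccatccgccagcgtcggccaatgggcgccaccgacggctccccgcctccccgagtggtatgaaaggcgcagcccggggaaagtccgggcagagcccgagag

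GAANNTTC occurred in 6 of 20 promoters of the immediate early and heat shock list (*Jun*, *Hspa1a*, *Hspa1b*, *Hspb1*, *Hspe1* and *Hspd1*), in 1 of 11 of the glucocorticoid list and in 9.04% of the promoters of 27025 genes. *Hspa1b*, *Hspe1* and *Hspd1* hold it and did not differ by 2-fold between pup and adult. TGACGTCA occurred in 2 of 20 and 2 of 11 against 2.03% of all, and the glucocorticoid element (GNACA and TGTNC with 3 bases between them) in 1 of 20 and in 2 of 11 (*Sgk1* and *Mt1*) against 0.537%. The CArG box occurred in 2 of 20 (*Egr2* and *Zfp36*) and 0 of 11 against 1.81%. A match describes letters in a window and not a bound site.

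Proteoglycans of the small leucine-rich family bind collagen fibrils and set their width. *Dcn* and *Lum* (chr10:97565128-97572703) rose from 3603 to 11339 CPM and from 815 to 4159 CPM (3851 to 4486) between pup and adult, and both had been higher at E19 than in the pup. *Bgn*, which encodes biglycan, was at 404, 538 and 2779 CPM at E19, in pup cells and in adult cells, with UMIs in all 31 adult cells. *Ogn* and *Ecm2* also rose, with log2 ratios of 1.16 (0.63 to 1.65) and 1.63 (1.20 to 2.04). *Aspn*, asporin, went the other way within 2-fold, at 2801 CPM in pup cells and 1467 CPM in adult cells, after 509 CPM at E19. In single cells the family took a median of 0.739% of UMIs in the pup and 2.06% in the adult. Of 31 adult cells 30 lay above the median pup cell, and 0 of 151 pup cells above the median adult cell.

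Collagens were more even. Of 16 chains 3 were higher and 2 lower in the adult, with a median log2 ratio of 0.32, beside 7.47% and 10.5% of all genes. The fibril-forming chain *Col3a1* was at 11150 CPM in the pup and 11494 CPM in the adult, and *Col1a1* at 6929.5 CPM and 6437 CPM. *Col14a1*, *Col5a3* and *Col15a1* rose (log2 ratios 1.23, 2.70 and 3.76), and the basement membrane chains *Col4a1* and *Col4a2* fell from 1839 to 619 CPM and from 1058 to 408 CPM. Of 16 processing genes 5 were higher, among them *Pcolce* (188 to 656 CPM) and the collagen chaperone *Serpinh1* (621 to 1386 CPM), and 1 was lower. The latter was *Lox*, the crosslinking enzyme lysyl oxidase, at 1096 CPM at E19, 686 CPM in pup cells and 124 CPM (75.6 to 191) in adult cells.

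Elastic fibre genes split, with 5 of 15 higher and 3 lower, beside 7.47% and 10.5% of all genes. *Fbn2*, *Eln* and *Mfap2* fell, *Eln* (elastin) from 2297 to 718 CPM, although 241 of its 1442 pup UMIs came from 1 cell. *Fbln2*, a fibulin of mature microfibrils, rose from 204 to 1102 CPM and *Efemp1* from 140.2 to 458 CPM, while *Fbn1* stayed at 1228 and 1071 CPM. In the provisional matrix list 5 of 12 were higher and 3 lower. *Postn* (periostin) went from 253 to 1046 CPM and *Spon2* from 102 to 941 CPM, whereas the activator of latent TGF-beta *Thbs1* went from 986 to 297 CPM. *Fn1* (fibronectin) was at 807 CPM in the pup and 3206 CPM in the adult, but 255 of its 518 adult UMIs were from 1 cell, and without it the adult level was 1781 CPM.

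Parts of the complement, protease inhibitor and antigen presentation lists were higher in the adult. Besides *C3*, the complement control gene *Cd55* (124 to 538 CPM) and the protease gene *C1s1* (242 to 569 CPM) rose, and *Clu* fell from 113 to 37.1 CPM. Of 10 protease inhibitors 4 were higher and 0 lower, beside 7.47% and 10.5% of all genes. Of 6 class I and interferon response genes 3 were higher, and 1 was lower, the interferon-induced *Ifitm1* (1024 to 384 CPM). Class I presentation genes *B2m* (309 to 829 CPM), *H2-K1* and *H2-D1* rose, with log2 ratios of 1.43, 1.41 and 2.00, and the last 2 are near-identical copies whose split is uncertain. *Pi16*, the marker of adventitial fibroblasts, was at 58.9 CPM in pup cells and 545 CPM (437 to 671) in adult cells, *Ly6a* at 104 and 569 CPM, and *Cd34* at 252 and 761 CPM. *Ly6a* also has close paralogs. *Dpp4*, another adventitial marker, had 0 UMIs in the pup and 14 in 6 adult cells, too few over both stages to be counted. Within the adventitial list only *Has1*, a hyaluronan synthase, was lower, from 124 to 37.1 CPM.

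Imprinted growth genes were lower in the adult for 11 of 15 members, and none was higher. *Dlk1* (chr12:109452823-109463336), an inhibitor of adipocyte differentiation, was at 1697 CPM (1667 to 1728) at E19, 766 CPM (699 to 838) in pup cells and 99.0 CPM (56.6 to 161) in adult cells. *Cdkn1c*, the cyclin-dependent kinase inhibitor p57, was at 1155, 463 and 49.5 CPM. Of its 291 pup UMIs 101 lay in the 17 cells close to E19, and without them the pup level was 344 CPM. *Plagl1*, a zinc finger factor of the imprinted network, was level at E19 and in pup cells (645 and 629 CPM) and at 43.3 CPM in adult cells, as was the noncoding RNA *Meg3*, at 2107, 2378 and 563 CPM. *Igf2* was at 283, 240.5 and 130.0 CPM, a log2 ratio of -0.83 (-1.62 to -0.22) for adult over pup, and 11 of its 21 adult UMIs were in 1 cell. The list took a median of 1.01%, 0.614% and 0.160% of a cell's UMIs, and 1 of 31 adult cells, at 1.36%, lay above the median pup cell. Without the cells close to the other side of birth, 10 of 14 members were lower.

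Ligands, binding proteins and feedback genes of growth factor pathways went in both directions or stayed within 2-fold. Of 9 IGF genes 2 were higher and 3 lower in the adult, and of 4 PDGF genes 0 differed by 2-fold. Over all genes 7.47% were higher and 10.5% lower, and these short lists were not tested against those shares. *Igf1*, a growth factor of mesenchyme, went from 1828 CPM in the pup to 489 CPM (387 to 609) in the adult, and the binding protein gene *Igfbp3* from 799 to 86.7 CPM, while *Igfbp6*, whose product prefers IGF2, rose from 280.3 to 2117 CPM (1898 to 2353) with UMIs in 30 of 31 adult cells. Of 5 FGF genes measured 3 were lower, all of them feedback inhibitors (*Spry2*, *Spry4* and *Dusp6*), and *Spry2* went from 342 to 86.7 CPM. *Wnt5a*, a WNT ligand of gut mesenchyme, went from 215 to 49.5 CPM, the WNT receptor gene *Fzd4* from 145 to 24.8 CPM and the WNT antagonist *Sfrp1* from 1081 to 328 CPM. *Rspo3*, an enhancer of WNT signalling, had 49 UMIs in 32 pup cells and 0 in the adult, just too few to be counted. Of 7 TGF-beta genes 0 differed by 2-fold, and the median log2 ratio was 0.20.

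Among 17 mesenchymal transcription factors 2 rose, *Prrx1* (35.0 to 186 CPM) and *Ebf1* (373 to 817 CPM), and 5 fell, among them *Tcf21*, a factor of visceral mesenchyme (293 to 92.8 CPM). Over all genes 7.47% were higher and 10.5% lower, and the lists of this paragraph were not tested against those shares. Of 10 lipid handling genes 1 rose (*Scd1*, a fatty acid desaturase, 54.1 to 136 CPM) and 4 fell, led by *Cebpd* and *Fabp4*, whose single adult UMI gives an interval of the log2 ratio from -9.10 to -1.23. Of 16 antioxidant and detoxification genes 3 rose (*Gpx3*, *Sod3* and *Gsn*) and 4 fell (*Fmo2*, *Adh1*, *Mt1* and *Mt2*). *Gsn*, the actin-severing protein gelsolin, which fibroblasts also secrete, was at 2348 CPM in the pup and 15096 CPM in the adult with UMIs in every adult cell, and *Sod3*, the superoxide dismutase bound to the matrix, at 51.0 and 508 CPM. *Fmo2*, a flavin monooxygenase, went from 2016 to 229 CPM (161 to 316), and the metallothionein genes *Mt1* and *Mt2* also belong to the glucocorticoid list. No Hox gene had enough UMIs. Of the 4 smooth muscle markers measured 2 (*Acta2* and *Mylk*) were lower in the adult, and *Rgs5*, a pericyte marker, was higher through 48 UMIs of 1 adult cell. All 4 hemoglobin genes were lower, but 0 of 4 were without the cells close to the other side of birth, and likewise without cells that had over 2% of UMIs from markers of another cell type.

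The adult cells were not uniform, although they formed 1 cluster. Among the genes that rose most, *Dkk2* was detected in 15 and *Cilp* in 14 of the 31 cells, and 0 cells had both, while 13 of the 14 *Cilp* cells also had *Thbs4*. *Dkk2* went with *Tnc*, encoding tenascin C, in 9 of 11 *Tnc* cells and with the eotaxin gene *Ccl11* in 9 of 12. *Pi16* cut across both, with 10 of the 15 *Dkk2* cells and 7 of the 14 *Cilp* cells. The cells with *Dkk2* had a median of 4595 UMIs and those with *Cilp* a median of 5659, and the part of depth in these pairs was not tested. They were picked after their values were seen and describe 31 cells.

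The pup cells formed 4 clusters of 42, 10, 64 and 35 cells, which were left without names because none had 3 fixed markers of a type among its leading genes. The first led with *Ly6a*, *Has1* and the chemokine gene *Cxcl1*, and all 65 *Ly6a* UMIs of the pup were in it (279.6 CPM against 0 in the rest). The cluster of 10 led with *Gdf10* and *Fbln5*. The largest led with *Slc16a6* (96.2 against 4.88 CPM) and *Tnc* (600.3 against 43.9 CPM), and *Cilp* (270.4 against 24.4 CPM) was also among its top 10 genes. The last led with *Fgl2* (1235 against 17.9 CPM) and *Ccl11*. Among the top 10 genes of this last cluster, of 35 cells, were *Etv1*, a marker of interstitial cells of Cajal (161 against 25.8 CPM), and the pericyte marker *Kcnj8* (169 against 29.8 CPM), and *Chrm2* (323 against 37.7 CPM), which with *Fgl2* was passed over among the named genes for its level in another cell class. The part of such cells in the pup values was not tested. *Pi16* and *Cilp*, which shared 7 adult cells, were found in 17 and 43 pup cells and together in 0, and likewise *Ly6a* and *Cilp* in 14 and 43 and together in 0. Cluster genes were chosen from the same cells and are given as a description.

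Between E19 and the pup, most proliferation genes fell, and most immediate early and glucocorticoid response genes rose. Over 10101 genes, 985 (9.75%) were at least 2-fold higher in the pup and 960 (9.5%) lower, with a median log2 ratio of 0.02. This comparison shares the pup sample with the one above, so values are set side by side and no agreement is drawn from them. Of 24 immediate early and heat shock genes 20 were higher and 0 lower (median 2.31), and of 12 glucocorticoid response genes 10 and 0 (median 2.48). Of 30 proliferation genes 24 were lower and 0 higher (median -1.27), among them *Mki67* (76.5 to 30.3 CPM) and *Stmn1* (339 to 76.4 CPM). These are sums over cells, and in the median cell the list took 0.0748% of UMIs at E19 and 0.0576% in the pup, and 0.0667% in both after thinning to 3000 UMIs, with the highest E19 cell at 2.33%. In the pup 33 of the 44 *Top2a* UMIs came from 1 cell.

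Of the 8 genes named for the largest rise from E19 to the pup, 7 are given here, and no shared function was tested. *Serpina3n*, an acute-phase protease inhibitor, was at 1.86 CPM (0.992 to 3.19) at E19 and 156 CPM (127 to 190.2) in the pup, and *Galnt15*, an enzyme of mucin-type glycosylation, at 4.44 and 328 CPM with UMIs in 85 of 151 pup cells. *Pappa*, a protease that frees IGF from its binding proteins, went from 10.7 to 468 CPM and was at 30.9 CPM in the adult. The xanthine oxidase gene *Xdh* went from 3.44 to 143 CPM, *Ramp1*, part of the receptor for the neuropeptide CGRP, from 8.02 to 229 CPM, *Has1* from 4.73 to 124 CPM and *Zbtb16* from 6.88 to 174 CPM. These 7 were at or below 10.7 CPM before birth.

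*Kera* (chr10:97606879-97613692), the gene of the corneal proteoglycan keratocan, had 631 UMIs in 211 of 739 E19 cells and none in 151 pup or 31 adult cells, and so was at least 18.9-fold lower in pup cells and at least 4.87-fold lower in adult cells. It lies beside *Lum* and *Dcn* on chromosome 10. The synaptic adhesion genes *Lrrtm4*, *Nrxn3* and *Lrrtm3*, the kinase gene *Pik3c2b*, the ligand gene *Wnt2* and the hormone gene *Stc1* also had 0 UMIs in the pup and were at least 9.63-, 5.40-, 4.65-, 4.95-, 4.77- and 4.74-fold lower. *Col6a4* had 2 UMIs in the pup, with a log2 ratio between -7.54 and -2.63. The GE-SCJ fibroblasts had 4.90 CPM of *Kera* at E19 (28 UMIs) and 0 UMIs in the pup and the adult.

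Other lists moved in parts, beside 9.75% of all genes higher in the pup and 9.5% lower. Of 24 antioxidant and detoxification genes 13 were higher in the pup and 1 lower, with *Cyp1b1* from 3.58 to 71.7 CPM. Of 12 chemokine and cytokine genes 8 were higher and 2 lower, of 13 TGF-beta genes 7 and 1, of 15 laminins and basement membrane genes 6 and 0, and of 20 lipid handling genes 7 and 1. Of 24 guidance signals 11 were lower and 2 higher, and of 12 fetal RNA-binding and chromatin genes 7 and 0. The retinoic acid enzyme gene *Aldh1a2* fell from 304 to 84.4 CPM, the Hedgehog receptor and target gene *Ptch1* from 279 to 90.8 CPM, and *Rspo3* rose from 2.87 to 78.0 CPM. Smooth muscle markers were lower for 7 of 9 and none was higher, with *Acta2* from 1215 to 253 CPM, and columnar markers were higher for 5 of 9.

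**Figure D5:**
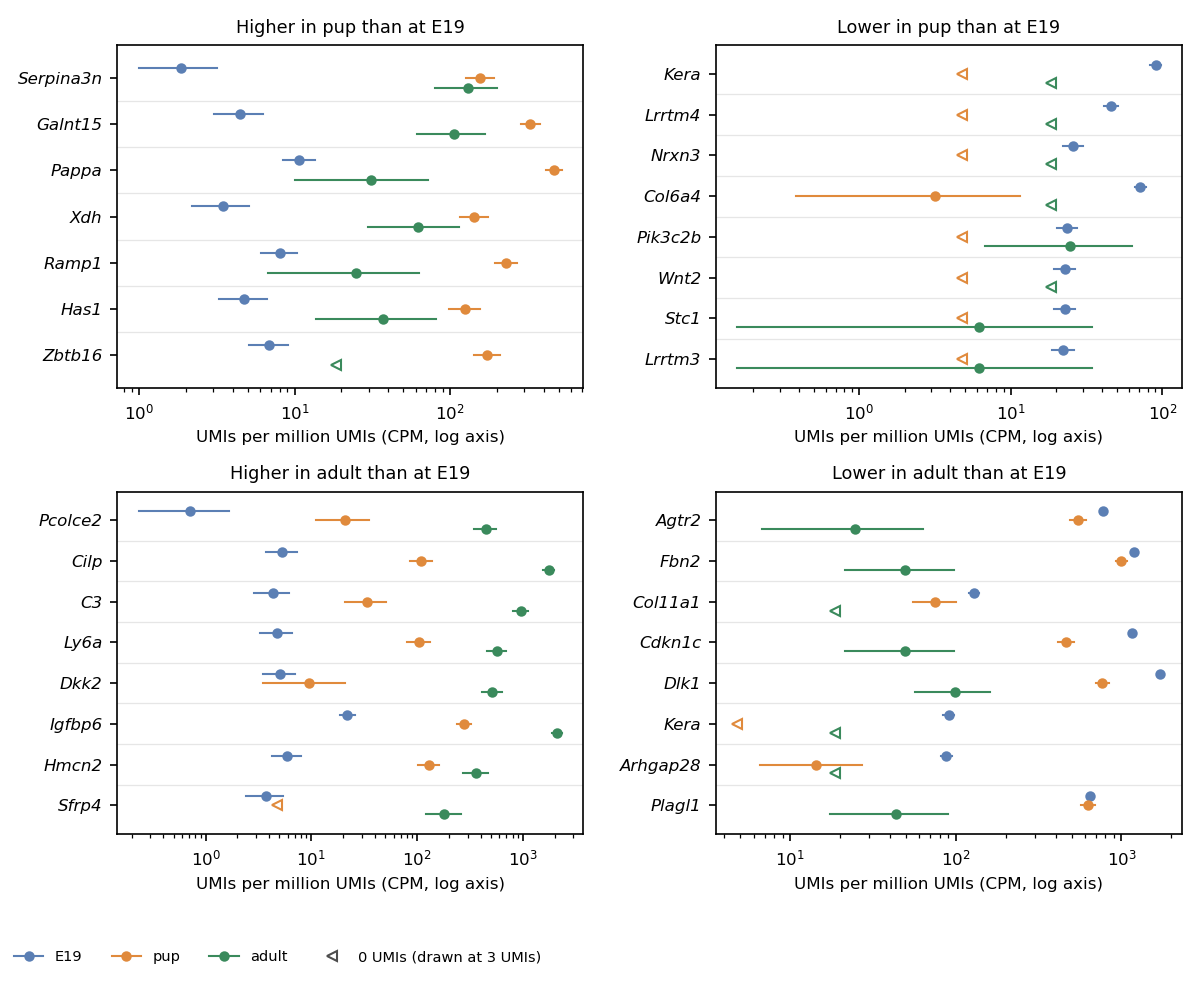
Levels of the genes, up to 8 in each direction, that differed most from E19 in the pup (top) or the adult (bottom), in CPM of summed UMIs on a log axis with exact 95% Poisson intervals, one colour per stage; an open triangle stands for 0 UMIs and is drawn at the level of 3 UMIs. *Galnt15* goes from 4.44 to 328 CPM between E19 and the pup, and *Kera*, at 90.4 CPM at E19, has 0 UMIs in both later samples.

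Against E19 the adult fibroblasts held more complement, protease inhibitor and adventitial transcripts and fewer imprinted and proliferation ones. Over 9928 genes, 1875 (18.9%) were at least 2-fold higher and 976 (9.83%) lower, and the median log2 ratio was 0.21, so that list values should be read from that median. After centring on it, 49.0% of the genes past 2-fold were higher, against 65.8% without centring. The 31 adult cells are shallow beside E19, and 1 added UMI weighs on rare genes. Among the 2586 genes with at least 10 UMIs expected in the adult at equal levels, a filter chosen after the data were seen, 228 (8.82%) were higher and 296 (11.4%) lower, with a median of -0.11.

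Of 18 imprinted genes 14 were lower and 0 higher (median -1.72), and of 30 proliferation genes 25 and 0. Of 8 complement genes 7 were higher and 0 lower, of 10 protease inhibitors 9 and 0, and of 11 adventitial markers 8 and 0 (median 2.37). With the stricter filter all 4 complement genes and all 7 inhibitors left were higher, 11 of 14 imprinted genes were lower, and so were all 11 proliferation genes. The immediate early list had 2 of 24 higher and 6 lower, and the glucocorticoid list 4 of 11 higher and 2 lower.

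*Pcolce2* was at 0.716 CPM (0.233 to 1.67) at E19 and 446 CPM in the adult, *C3* at 4.30 and 953 CPM, *Cilp* at 5.30 and 1758 CPM, and *Ly6a* at 4.73 and 569 CPM. *Dkk2* and *Igfbp6* had log2 ratios of 6.66 (6.09 to 7.29) and 6.59 (6.31 to 6.88). The matrix gene *Hmcn2* went from 5.87 to 359 CPM. *Sfrp4*, a secreted WNT antagonist, had 26 UMIs at E19, none in 151 pup cells and 29 UMIs in 9 adult cells (179 CPM, 120.2 to 258). Of 13 WNT inhibitors and agonists in the matrix 5 were measured. The antagonists *Dkk2*, *Sfrp2* and *Sfrp4*, 3 of these 5, were higher in the adult than at E19, beside 18.9% of all genes. The short list was not tested against that share, and *Sfrp4*, with 26 and 29 UMIs, was close to the minimum for being counted.

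In the other direction stood *Agtr2*, *Fbn2*, *Cdkn1c*, *Dlk1* and *Plagl1*, with log2 ratios of -4.65, -4.41, -4.37, -4.01 and -3.70. The fibrillar collagen gene *Col11a1*, *Kera* and the signalling gene *Arhgap28* had 899, 631 and 612 UMIs at E19 and 0 in the adult, and were at least 6.94-, 4.87- and 4.72-fold lower. Of these 8 genes, *Plagl1*, *Fbn2*, *Agtr2* and *Col11a1* were within 2-fold between E19 and the pup, with *Col11a1* at 129 and 74.9 CPM.

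The 15 adult fibroblasts of the GE-SCJ had another profile, and their median mitochondrial share was 7.30% of UMIs against 2.83% in the adult esophagus. They held 819 CPM of *Dlk1*, 921 CPM of *Cdkn1c*, 862 CPM of *Fbn2*, 666 CPM of *Plagl1* and 299 CPM of *C3*, and 0 UMIs of *S100a4*, *Dkk2* and *Pcolce2*. Proteoglycan transcripts summed to 5520.1 CPM there and imprinted ones to 8506 CPM, against 21075 and 2086 CPM in the adult esophagus. The low imprinted and high proteoglycan levels of the adult esophageal fibroblasts were therefore not seen in these 15 cells, and whether region, cell number or cell state accounts for it was not tested.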

How the data were processed

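Single cells were captured with 10x Genomics 3′ CellPlex chemistry. The authors made the UMI counts with Cell Ranger multi (version 6.1.1 per the labels) on the mm10 (GRCm38) reference, and deposited them without normalization. They had removed barcodes with under 100 or over 8500 genes, over 80000 UMIs or over 20% mitochondrial UMIs, and subgroups of poor read counts. No doublets were removed here beyond this filter. The percent of mitochondrial UMIs per cell, the class label and the tag were deposited by the authors. In all 7808 cells the tag agreed between both deposited lists and the UMI sum equalled the deposited total. Collagenase dissociation precedes capture, and its part in any level was not tested.

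UMIs were summed per stage over the cells with the label Stromal and scaled to CPM, with exact 95% Poisson intervals. Shares of cells with a UMI depend on depth. Log2 ratios have 1 UMI added to each sum and an exact interval conditional on both counts. Genes with at least 50 UMIs over both stages were counted at a 2-fold limit, which describes size and is no test. Where a sum was 0, the fold was computed against 3 counts over the group, and the interval and this limit cover counting error only.

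Named genes were the 12 in each direction for adult against pup, and the 8 in each direction against E19, with the largest log2 ratio, a UMI in at least 10% of the cells of the higher group, and a level there at least that of squamous, immune and smooth muscle cells of the same tag (classes of at least 10 cells). The adult esophagus had only 5 immune cells, so genes higher in the adult were not compared with that class. Mitochondrial, ribosomal protein, hemoglobin, Y-linked and unnamed genes and *Xist* were passed over. 1 gene chosen by this rule for pup over E19 is not reported here. For the level in other classes, *Crip1* (adult over pup), *Chrm2* (adult under pup), *Hp*, *Rspo3*, *Trib1*, *Fgl2* and *Hmcn2* (pup over E19), *Ccne2* and *Ndufa4l2* (pup under E19), and *H1fx*, *Ppp1r14a*, *Fbxl22*, *Cenpf* and *Prc1* (adult under E19) were passed over. Other genes come from 48 lists by role or cell type (760 genes, 746 in the matrix). The members and the lists were chosen with earlier results of these data known.

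Alternatives were the mean of each cell's CPM, stricter cells (at least 1000 UMIs, at most 10% mitochondrial), cells without 2% of UMIs from another type's markers, the 1% of cells highest for a gene left out, another library size, thinning to 3000 UMIs, and other filters and added UMIs. A filter on expected UMIs, the pairs of genes within cells and the cell with the most UMIs of a gene were examined after the data were seen. Neighbours (15 per cell, 30 components, 2000 variable genes) and Leiden clusters (20 components, resolution 0.5) used counts scaled to 10000 UMIs. Positions are those of GENCODE M21. Scanpy 1.11.5, scipy 1.17.1, matplotlib 3.10.9, pandas 2.3.3 and numpy 2.4.6 were run in Python 3.11.15. The ratios were tested on simulated sums with counting error only, which leave out uneven counts between cells.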

Additional observations from a re-analysis of the deposited data

How the results depend on the processing

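With 1 pooled sample per stage, nothing here measures the spread between mice, and counting error is the only error given. No paired analysis was possible because each stage is a single sample without replicates. The 56 ratios of named genes kept their direction and stayed past 2-fold in all 664 values under 13 alternative settings, and 624 of these lay within the interval of the ratio. The genes were chosen for the largest ratios in the same counts, so staying past 2-fold was largely fixed in advance. The minima of 10 and 200 UMIs and the filter on expected UMIs decide only whether a gene is counted. They cannot change its ratio, so these values say nothing on stability. Not every gene had a value under each setting. Of 118 counts, medians and cluster numbers under alternatives, 68 stayed within 1.5 times or the spread, and 50 moved. For adult against pup, genes higher and lower were 118 and 192 after thinning, 1143 and 900 with a minimum of 10 UMIs, and 44 and 92 with a minimum of 200, where more or fewer genes were tested; 5 added UMIs gave 250 and 159, and leaving out the 1% highest cells 161 and 357, against 208 and 292. The median log2 ratio was -0.13 without the 1% highest cells, -0.0896 with the other library size, -0.0682 thinned, 0.11 and -0.21 with minima of 10 and 200, and 0.20 with 5 added. For pup against E19, counts were 614 and 554 thinned, 2029 and 1247 with a minimum of 10, 401 and 427 with 200, 1578 and 283 with 5 added, and 565 and 628 with the filter on expected UMIs, which was chosen after seeing the data. Its median was 0.0456 for the mean of cells, -0.0021 without the highest cells, -0.0562 with the other library size, 0.0765 and -0.0324 with minima of 10 and 200, -0.0182 and 0.32 with 0.5 and 5 added, and -0.0094 with expected UMIs. For adult against E19, 1265 were higher and 1481 lower without the highest cells, 1442 and 1268 with the other library size, 1072 and 672 thinned, 4090 and 976 with a minimum of 10, 557 and 583 with 200, 1567 and 1649 with 0.5 added, 5140 and 132 with 5 added, and 228 and 296 with expected UMIs, against 1875 and 976. Its median was -0.0765, 0.0497, 0.18, 0.47, 0.0264, 0.0600, 1.05 and -0.11 without the highest cells, with the other library size, thinned, with minima of 10 and 200, with 0.5 and 5 added and with expected UMIs. Added UMIs raise the shallower sample by construction; the cause of the other shifts was not tested. At resolution 0.3 the pup had 2 clusters, and at 1.0 the adult had 3. Counts of list members ranged, for adult under pup, from 13 to 19 (immediate early), 5 to 11 (glucocorticoid) and 9 to 12 (imprinted), and for adult over pup from 3 to 7 (proteoglycans), 2 to 9 (adventitial) and 1 to 5 (complement). Some settings also changed how many members were measured and the shares over all genes, so these ranges do not measure the stability of a list.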
